A study of Mus musculus with 6 samples.

Results

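The cytosolic ribosomal protein genes were examined in TC-1/A9 mouse tumour cells after combined treatment with a DNA methyltransferase inhibitor and a histone deacetylase inhibitor. They were chosen by symbol alone, as Rpl or Rps followed by a number, together with Rplp0, Rplp1, Rplp2 and Rpsa, and pseudogenes and the Rps6k kinases were left out. The rule found 54 genes among the 9192 genes with a named probe above background on the array, and 75 of the 17445 kept probes belonged to them. Of these genes, 33 encode proteins of the large (60S) subunit and 21 encode proteins of the small (40S) subunit, and 50 are the usual gene of their protein while 4 (Rpl3l, Rpl7l1, Rpl36al and Rps27l) are paralogues. No gene of the rule with a named probe was lost to the detection filter, and 53 were detected on all 6 arrays. The exception, Rpl3l, was kept because of its treated arrays alone, and a gene kept in this way had to differ. Rpsa and several other ribosomal proteins had no named probe among those kept and are not analysed here.

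The treated cells received 5-aza-2'-deoxycytidine (DAC, 3 μM) for 48 h, with medium and inhibitor renewed halfway, and then trichostatin A (TSA, 30 ng/ml) for 24 h. The other group was left untreated. Both groups were the same line, TC-1/A9, of C57BL/6 background. It was derived from TC-1, which are lung cells given human papillomavirus oncogenes and an activated ras gene, so both groups carry these transgenes. Each group had 3 cultures with 1 Illumina Mouse WG-6 array each, which the series calls biological replicates, and DAC and TSA were given only together, so their parts cannot be told apart.

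Ribosomal proteins assemble with ribosomal RNA in the nucleolus into the 2 subunits, and the subunits meet on an mRNA to make protein. Their mRNAs are among the most abundant of a growing cell, and in mammals most start with a run of pyrimidines (C or T in the DNA), the terminal oligopyrimidine or TOP motif, through which mTOR signalling controls how much of each mRNA is translated. Their promoters commonly lie in CpG-rich DNA, the kind of sequence in which methylated cytosines, the marks that DAC removes, are usually rare.

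The start sites of 46 of the 54 genes could be read from RefSeq (assembly GRCm38.p6). The 30 bases around the annotated start, 15 on each side, are shown for 7 genes that passed the test described below and for Rpl38, whose probes disagreed. The longest run of pyrimidines in each is in capitals.
Rpl22 (chr4:152325711-152325740, plus strand): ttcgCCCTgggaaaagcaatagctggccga
Rps15a (chr7:118116133-118116162, minus strand): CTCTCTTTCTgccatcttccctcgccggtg
Rplp0 (chr5:115559452-115559481, plus strand): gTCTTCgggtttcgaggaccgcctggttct
Rpl7a (chr2:26910792-26910821, plus strand): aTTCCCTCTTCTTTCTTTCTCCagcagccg
Rpl4 (chr9:64173372-64173401, plus strand): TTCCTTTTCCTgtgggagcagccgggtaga
Rpl7l1 (chr17:46782642-46782671, minus strand): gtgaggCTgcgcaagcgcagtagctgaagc
Rps27l (chr9:66946071-66946100, plus strand): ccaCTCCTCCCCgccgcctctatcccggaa
Rpl38 (chr11:114668565-114668594, plus strand): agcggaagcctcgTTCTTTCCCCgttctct

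A run of at least 6 pyrimidines stood in these 30 bases in 25 of the 46 genes (54.3%). The share was 29.1% over 27025 genes with a RefSeq start, which were not limited to the 9192 genes used elsewhere. Among the 8 genes that passed the test such a run stood in 4, namely Rpl4, Rpl7a, Rps15a and Rps27l. The letters CCGGAAG were searched on both strands of the 300 bases from 250 before to 50 after the start. They were found in 19 of 46 members (41.3%) and in 9.12% of the 27025 genes. The median member had 21 CpG pairs in that window, against 7 for the 27025 genes. Of the members Rpl3l, with 2, had the fewest. These matches describe the sequence only, and RefSeq starts can lie some bases from the start used in these cells.

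Most ribosomal protein genes, as read by their brightest probes, differed little between DAC/TSA-treated and untreated cells. These probes were bright, with a median mean log2 signal of 13.27 over the 50 usual genes, against 7.94 over all genes. Most genes that passed were among the dimmer ones, as given below by signal, and whether brightness limited the differences was not tested. Of the 54 genes, 8 (14.8%) passed a false discovery rate of 0.01 in limma, whereas 43.9% of all genes did. Rplp0, Rpl7a, Rpl4, Rpl3l, Rpl7l1 and Rps27l were higher, so that 6 of 54 rose where 22.5% of all genes rose, with Rpl3l among the 6 through the filter. Rpl22 and Rps15a were lower, so that 2 of 54 fell where 21.4% of all genes fell. The median log2 difference (DAC/TSA minus untreated) was 0.01 over the members and 0.01 over all genes, and the median size of the difference without its sign was 0.12 over the members and 0.31 over all genes. The difference was under 1.2-fold in 45 of 54 members (83.3%) and in 43.8% of all genes. At an unadjusted p under 0.05 the test gave 13 of 54 members and 5767 of all 9192 genes. In RNA from whole cultures, less mRNA per cell and fewer cells of a kind cannot be told apart.

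The count of higher genes depended on single arrays. It was 2 without DAC/TSA array 2, 3 without DAC/TSA array 1, DAC/TSA array 3, untreated array 2 or untreated array 3, and 5 without untreated array 1, while the count of lower genes was 2 each time. Rpl22, Rps15a and Rplp0 passed in each of these 6 fits. The share of all genes that passed changed too, from 43.9% as fitted. It was 39.9%, 33.2% and 35.1% without DAC/TSA array 1, 2 or 3, and 46.0%, 35.3% and 35.8% without untreated array 1, 2 or 3.

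**Figure D1:**
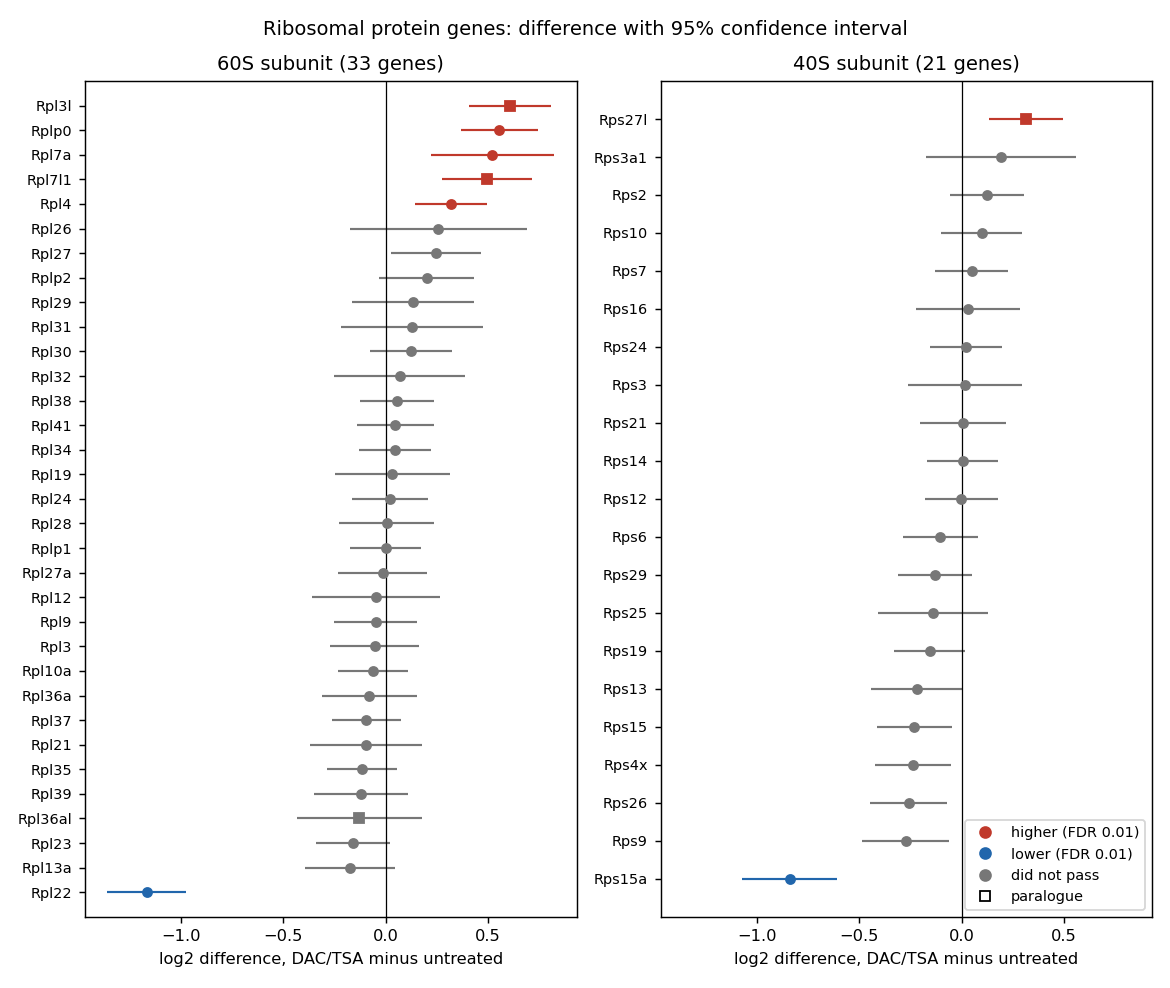
Log2 difference, DAC/TSA minus untreated, of each of the 54 ribosomal protein genes (x axis) with its 95% confidence interval from the limma fit over 3 arrays per group, for the 33 60S genes on the left and the 21 40S genes on the right. Rpl22 (-1.17) and Rps15a (-0.84) lie apart from the rest, and 45 of 54 genes lie within 1.2-fold of no difference.

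The large subunit held 6 of the 8 genes that passed and 33 of the 54 members. Among the usual genes, 4 of 30 60S genes and 1 of 20 40S genes passed, against 43.9% of all genes. Whether the subunits differed was not tested. The gene furthest from no difference was Rpl22, an RNA-binding protein of the 60S subunit that mice can live without. Its deposited intensities were 441, 511 and 421 in DAC/TSA-treated cells and 796, 1040.5 and 1050.3 in untreated cells. After normalisation the log2 signals were 8.94, 8.76 and 8.69 in DAC/TSA-treated cells, against 9.98, 9.97 and 9.96 in untreated cells. All treated arrays lay more than a log2 unit below all untreated arrays, whose values nearly coincided. The log2 difference was -1.17 (SE 0.09, adjusted p = 2.5e-06), so that Rpl22 was 2.25-fold lower. Its paralogue Rpl22l1 had no named probe among those kept.

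Rplp0, Rplp1 and Rplp2 encode the stalk of the 60S subunit, the flexible arm that draws the elongation factors to the ribosome. Rplp0, the base of the stalk, had log2 signals of 10.03, 10.21 and 10.07 in DAC/TSA-treated cells, against 9.48, 9.59 and 9.57 in untreated cells. The groups did not overlap, and Rplp0 rose by 0.56 (SE 0.08, adjusted p = 0.00031), or 1.47-fold. The genes of the proteins that sit on this base did not pass the same threshold. For Rplp1 the difference in this fit was 0, for the reason given below. Rplp2 had log2 signals of 13.72, 13.56 and 13.67 in DAC/TSA-treated cells, against 13.52, 13.58 and 13.23 in untreated cells, so that the groups overlapped (difference 0.20, 95% confidence interval -0.03 to 0.43, adjusted p = 0.13). The probe of Rplp1 was the brightest on 4 arrays and the next brightest on the other 2. Its intensities were 35946, 35247 and 31324 in DAC/TSA-treated cells and 38516, 33529 and 35298 in untreated cells. Quantile normalisation sets a signal by its rank, and as array 1, 2 and 3 gave the same rank in both groups, its difference was 0. A rise beyond the top rank could not have shown in this fit, whereas a fall in rank could. Without scaling the difference was -0.07, and with cyclic loess -0.16, neither passing. Whether the 3 stalk genes differed from each other in their response was not tested.

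Rpl7a and Rpl4 are 60S proteins, and a loop of Rpl4 lines the tunnel through which the new protein leaves. Rpl7a had log2 signals of 10.35, 10.53 and 10.41 in DAC/TSA-treated cells, against 9.56, 10.04 and 10.12 in untreated cells. The groups were apart, with untreated array 1 well below its fellows, and the difference was 0.52 (SE 0.14, adjusted p = 0.0083). Rpl4 had log2 signals of 10.18, 10.08 and 10.16 in DAC/TSA-treated cells, against 9.78, 9.81 and 9.87 in untreated cells, a difference of 0.32 (SE 0.08, adjusted p = 0.0060). Both stood near the threshold, and Rpl7a passed in 8 and Rpl4 in 6 of 16 alternative settings, against 16 of 16 for Rpl22.

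The other 26 usual 60S genes did not pass, and their differences ran between -0.17 for Rpl13a and 0.26 for Rpl26. Rpl23, Rpl35 and Rpl37 were lower and Rpl27 was higher on every DAC/TSA array than on every untreated array without passing. Rpl27, for example, had log2 signals of 13.96, 13.72 and 13.71 in DAC/TSA-treated cells, against 13.64, 13.43 and 13.57 in untreated cells (difference 0.25, adjusted p = 0.058).

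In the small subunit only Rps15a passed among the 20 usual genes. Rps15a is a protein of the 40S body that is needed to mature the RNA of its subunit. Its log2 signals were 6.39, 6.39 and 6.69 in DAC/TSA-treated cells, against 7.46, 7.26 and 7.28 in untreated cells, and the groups did not overlap. Rps15a fell by 0.84 (SE 0.10, adjusted p = 8.3e-05), or 1.79-fold. Its probe was dim, with intensities between 80.9 and 105 in DAC/TSA-treated cells and between 142 and 166 in untreated cells, and it was detected on all 6 arrays. It passed in 16 of 16 alternative settings.

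The differences of the other 19 usual 40S genes ran between -0.27 for Rps9 and 0.19 for Rps3a1. Rps9, Rps26, Rps4x, Rps15 and Rps19 were each lower on every DAC/TSA array than on every untreated array. Rps9, which helps to shape the entry of the mRNA channel, had log2 signals of 14.19, 13.95 and 13.92 in DAC/TSA-treated cells, against 14.38, 14.28 and 14.21 in untreated cells. The groups were separate by a narrow margin, and the difference was -0.27 (SE 0.10, adjusted p = 0.035). Counted over both subunits, the groups did not overlap in 17 of 54 genes (31.5%), 7 higher and 10 lower, whereas this was so in 63.9% of all genes.

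**Figure D2:**
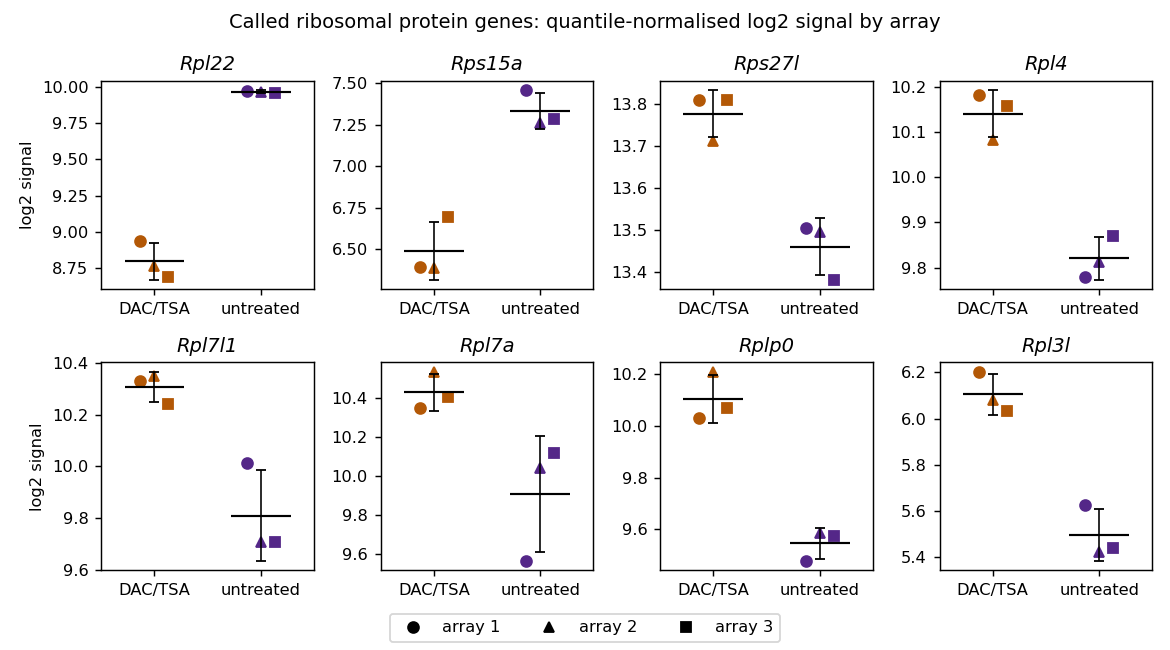
Quantile-normalised log2 signal (y axis, its own range in each panel) of the 8 ribosomal protein genes that passed, for 3 DAC/TSA arrays on the left and 3 untreated arrays on the right of each panel. Marker shapes give the array number, horizontal lines the group mean and whiskers 1 SD. In each panel the groups do not overlap.

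Paralogues were described beside their parent genes. Rpl3l, which takes the place of Rpl3 in heart and skeletal muscle, was above background on 3 of 3 DAC/TSA arrays and on 0 of 3 untreated arrays. Its log2 signals were 6.20, 6.08 and 6.03 in DAC/TSA-treated cells, against 5.63, 5.42 and 5.44 in untreated cells. The untreated values lay below the lowest detected signal of their arrays (5.83 to 5.84). Set against that lowest signal, Rpl3l was at least 1.21-fold higher, which is given as a description because the filter kept it through the treated arrays alone. Rpl3, a protein next to the catalytic centre of the 60S subunit, had log2 signals of 13.36, 13.58 and 13.64 in DAC/TSA-treated cells, against 13.47, 13.64 and 13.63 in untreated cells (difference -0.05, 95% confidence interval -0.27 to 0.16).

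Rpl7l1, a relative of Rpl7, had log2 signals of 10.33, 10.35 and 10.24 in DAC/TSA-treated cells, against 10.01, 9.71 and 9.71 in untreated cells. It rose by 0.50 (SE 0.10, adjusted p = 0.0019). Rps27l, a relative of the 40S gene Rps27, had log2 signals of 13.81, 13.71 and 13.81 in DAC/TSA-treated cells, against 13.50, 13.50 and 13.38 in untreated cells. It rose by 0.32 (SE 0.08, adjusted p = 0.0076) and passed in 7 of 16 alternative settings. The parents Rpl7 and Rps27 had no named probe among those kept, so neither pair could be compared.

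Rpl36al, on chromosome 12, and its X-linked parent Rpl36a encode nearly the same 60S protein. Rpl36al had log2 signals of 13.12, 12.80 and 12.69 in DAC/TSA-treated cells, against 13.26, 12.88 and 12.86 in untreated cells. Rpl36a had log2 signals of 10.93, 11.22 and 11.23 in DAC/TSA-treated cells, against 11.13, 11.15 and 11.34 in untreated cells. Groups overlapped in both, and the differences were -0.13 (adjusted p = 0.46) and -0.08 (adjusted p = 0.55). Leaving out untreated array 1 gave 0.0043 for Rpl36al, and leaving out DAC/TSA array 1 gave 0.018 for Rpl36a and 0.031 for Rpl3, so none of these has a settled direction.

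The genes that passed were not spread evenly over the range of signal. Bins of mean log2 signal held 2 of 4 members passing below 8, 3 of 4 between 8 and 10, 2 of 8 between 10 and 12, 1 of 24 between 12 and 14 and 0 of 14 at 14 and above, where 2 had an unadjusted p under 0.05 in limma. The shares among other genes in the same bins were 42.7%, 47.7%, 43.0%, 38.6% and 26.3%, the last over 19 genes. Members made up 8 of the 20 genes with the brightest probes. Across the 54 genes the size of the difference fell with signal (Pearson r = -0.61, Spearman rho = -0.41), as a description over probes that share arrays and a normalisation. The brightest member signals, up to 38516, were among the highest on their arrays, and whether bright probes reported smaller differences because of their brightness was not tested.

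**Figure D3:**
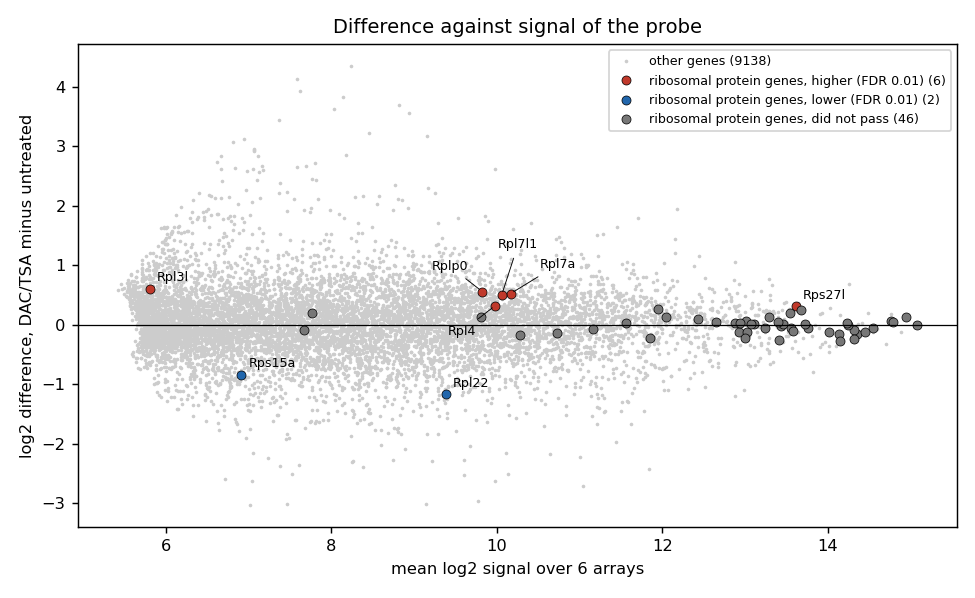
Log2 difference, DAC/TSA minus untreated (y axis), against mean log2 signal over 6 arrays (x axis) for 54 ribosomal protein genes (large points, coloured by call) and 9138 other genes (small grey points). Of the 38 members with a mean signal of 12 or more, only Rps27l passed.

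Several probes to a gene gave a second view of it in 16 genes. Of the 21 probes other than the brightest, 14 had the sign of the brightest. Of these 21, 2 passed as higher, 2 as lower and 17 not at all, whereas 43.9% of all genes passed by their brightest probe. The widest gap was in Rpl38, a 60S protein whose loss in mice alters the skeleton. Its brightest probe had intensities of 27638, 29962 and 28723 in DAC/TSA-treated cells and 24642, 27887 and 28245 in untreated cells, with a log2 difference of 0.05 (adjusted p = 0.60). Its other probe had intensities of 878, 1017 and 899 in DAC/TSA-treated cells and 429, 510.3 and 590.3 in untreated cells. That probe was higher on every treated array, with a log2 difference of 0.78 (SE 0.09, adjusted p = 4.4e-05).

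Rps13, a 40S protein, differed in the same way between probes but fell. Its brightest probe gave -0.22 (adjusted p = 0.098), and a dim probe with intensities of 79.1, 86.1 and 95.1 in DAC/TSA-treated cells and 112, 157 and 156 in untreated cells gave -0.82 (adjusted p = 7.7e-05). The probes of Rps19, the gene most often mutated in Diamond-Blackfan anaemia, pointed opposite ways, with -0.16 for the bright and 0.36 for the dim probe (adjusted p = 0.12 and 0.012). For Rpl7l1 the brightest probe gave 0.50 and a probe at the edge of detection, above background on 4 arrays, gave 0.14 (adjusted p = 0.27). The remaining probes that passed were 1 of 3 for Rpl31 (0.40, adjusted p = 0.0026) and the dimmer of 2 for Rps9 (-0.47, adjusted p = 0.0013), both named after their values were seen. The files give no probe sequence, and RefSeq lists 211 pseudogenes named after 42 of the members, 14 after Rpl7a and 8 after Rps15a among them, so which transcripts each probe reads, whether an isoform or a copy, was not tested.

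**Figure D4:**
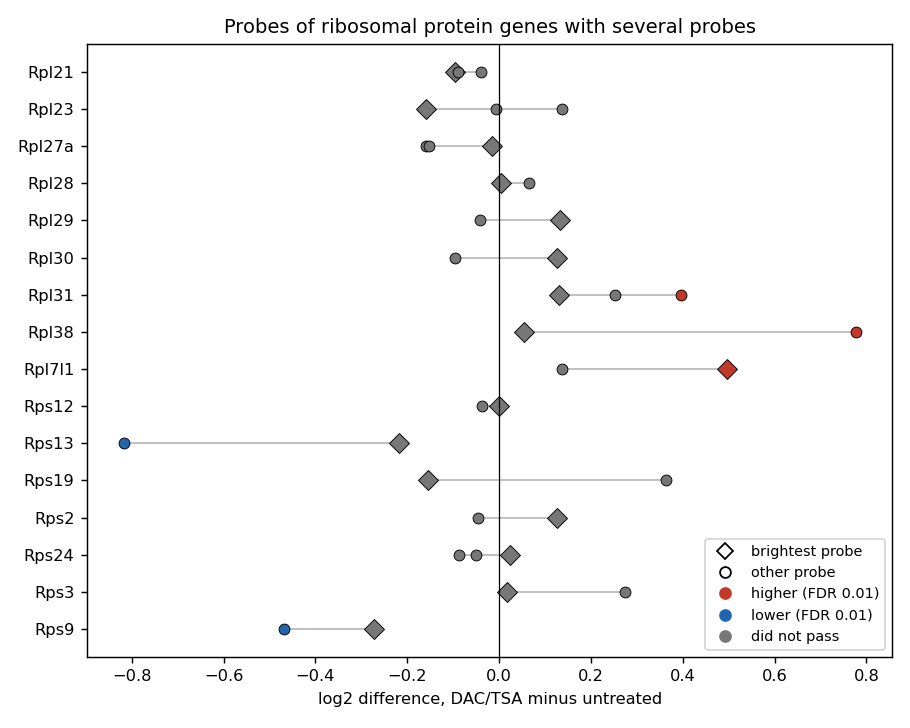
Log2 difference, DAC/TSA minus untreated (x axis), of every kept probe of the 16 ribosomal protein genes with several probes (rows). Diamonds mark the brightest probe and circles the others, coloured by call; the 2 probes of Rpl38 lie at 0.05 and 0.78 and those of Rps13 at -0.22 and -0.82.

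Part of the spread within a group was shared between the groups. Deviations of the members from their group means had r = 0.85 between the arrays numbered 1, against 0.63 over all kept probes. For the members r was 0.49 between the arrays numbered 2 and 0.56 between those numbered 3. Between unlike numbers it was 0.73 for DAC/TSA array 2 with untreated array 3, and 0.56 for DAC/TSA array 3 with untreated array 2. Array 1 lay more than 1.2-fold below the mean of arrays 2 and 3 in both groups for 7 genes. It lay more than 1.2-fold above that mean in both groups for Rpl21 and Rpl36al. In 40 of 54 genes the wider of the 2 within-group ranges exceeded the difference between the groups, which does not bear on sharing. None of these counts was made over all genes. Rpl26, a 60S protein, had log2 signals of 11.74, 12.21 and 12.29 in DAC/TSA-treated cells, against 11.36, 12.08 and 12.03 in untreated cells. In each group array 1 was the lowest, and at each number the treated array was above the untreated one. The difference of 0.26 did not pass as fitted (SE 0.19, adjusted p = 0.29), but passed with the replicate number as a block (SE 0.07, adjusted p = 0.0099), as did that of Rps9 (adjusted p = 0.0052). With both arrays numbered 1 left out, a setting chosen after seeing these values, 5 members were higher and 3 lower. Rpl4 no longer passed and Rps9 did, and 51.5% of all genes passed.

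**Figure D5:**
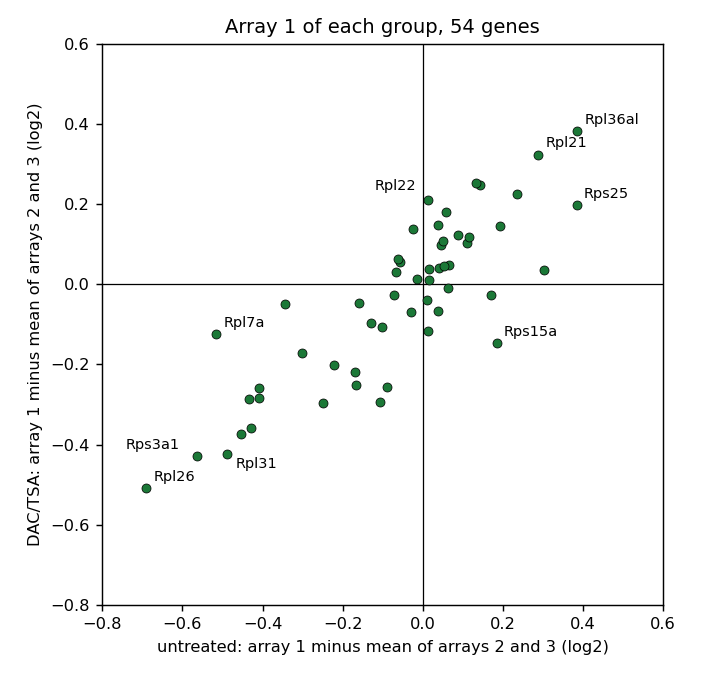
Log2 signal of array 1 minus the mean of arrays 2 and 3 for the 54 ribosomal protein genes, in DAC/TSA-treated cells (y axis) and in untreated cells (x axis). Points lie mostly along the rising diagonal, with Rpl26 at -0.51 and -0.69 and Rpl36al at 0.38 and 0.39, whereas Rpl7a is low mainly on untreated array 1.

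As a share of all intensity on an array, the brightest probes of the 54 members gave 4.31%, 4.18% and 4.22% in DAC/TSA-treated cells, against 4.46%, 4.36% and 4.41% in untreated cells. The treated arrays were lower without overlap. They also detected more probes, 15008 to 15783, against 14704 to 14802 in untreated cells, and its part in the shares was not tested. Of markers of cell state, Krt8, Krt18 and Krt19 were higher, of which Krt18 and Krt19 were above background on 0 of 3 untreated arrays and were kept through the treated arrays alone (3 of 5 epithelial markers measured, summed signal 650 to 806 in DAC/TSA-treated cells and 152 to 168 in untreated cells), and Vim, Col1a1, Fn1 and Acta2 were all lower (4 of 5 mesenchymal markers measured, summed signal 9481 to 10447 in DAC/TSA-treated cells and 19338 to 20098 in untreated cells). Their part in the ribosomal protein differences was not tested. None of 6 lung epithelial, 7 leukocyte and 3 endothelial markers had a named probe among those kept, so the lung origin of the line could not be seen in its markers.

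Genes that work with the ribosomal proteins were read in the same fit. Among elongation factors and other genes with TOP mRNAs, 0 of 13 measured genes passed at 0.01 in limma, against 43.9% of all genes. An unadjusted p under 0.05 in limma was found for 4 of the 13 and for 5767 of all 9192 genes. The median difference of the 13 was -0.00083. Eef2, which moves the ribosome along the mRNA, and Eef1a1, which brings in the transfer RNA, differed by 0.27 and -0.13 without passing. Of 25 initiation factors 4 were higher and 3 lower, against 22.5% and 21.4% of all genes. Eif2b1, part of the factor that recharges eIF2, rose by 0.41, while Eif5b, which joins the subunits, fell by 0.49 and Eif4g2, a scaffold of alternative initiation, fell by 0.39.

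Among 13 measured genes that control the transcription or translation of ribosomal protein mRNAs, 2 were higher and 3 lower, which together is near the 43.9% of all genes that passed. Max, the partner of Myc, rose by 0.58 and Gabpa, an ETS factor, rose by 0.53, while Mtor, the kinase at the head of the TOP pathway, fell by 0.45, and its partner Rptor and the translation repressor Eif4ebp2 were the other lower genes. Of 9 measured chaperones and import factors of ribosomal proteins, 3 were higher and 0 lower, against 22.5% and 21.4% of all genes. These were Heatr3, which serves Rpl5 (0.60), Ltv1, a 40S assembly factor (0.39), and Tsr2, the chaperone of Rps26 (0.36), whereas Rps26 itself differed by -0.26 (adjusted p = 0.026). Mdm2, the ligase to which free ribosomal proteins bind, rose by 0.51 (adjusted p = 0.00039 in limma). Cdkn2a (-0.53, adjusted p = 0.023) and Cdkn1a (-0.23, adjusted p = 0.029) did not pass. These were the 3 measured genes of the last list, of which 1 passed, against 43.9% of all genes.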

How the data were processed

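Total RNA of 3 DAC/TSA-treated and 3 untreated TC-1/A9 cultures was measured on Illumina Mouse WG-6 arrays. The authors extracted probe signals with BeadStudio, and the deposited intensity of each of 45281 probes is linear and neither normalised nor background-corrected. A deposited detection p-value stands beside each intensity. The authors also deposited quantile-normalised log2 values of 16148 probes, made with lumi and limma in R, used as an alternative.

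Intensities were quantile-normalised and put on the log2 scale. The filter kept 17445 probes, those whose detection p did not exceed 0.01 on 1 or more of the 6 arrays. Gene symbols came from the platform annotation, matched through Entrez identifiers to RefSeq (GRCm38.p6), which changed 0 member symbols, and 13943 kept probes carried 1 symbol, 7 several and 3495 are unnamed here. A gene was represented by its brightest kept probe. Groups were compared by limma 3.58.1 in R 4.3.3 (lmFit, eBayes), 2-sided, without covariates, with Benjamini-Hochberg adjustment over all kept probes and a false discovery rate of 0.01. The fit was tested on simulated data whose noise was independent between arrays. That test does not bear on an offset shared by the arrays numbered 1, or on a limit of bright signals. Errors are standard errors of the fit or SD over 3 arrays. The number of arrays limits the precision. "Passed" means past this threshold. The p-values of this fit set a difference against the spread between these cultures, without regard to their replicate numbers.

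The samples share replicate numbers. Deviations from the group means correlated between same-numbered arrays (r = 0.63, 0.24 and 0.36 over kept probes), and as all 3 exceeded 0.1 the numbers were taken to pair the cultures. The pairing comes from the data, not from the labels, and arrays 2 and 3 were not told apart by it. DAC/TSA array 2 with untreated array 3 gave r = 0.38, and DAC/TSA array 3 with untreated array 2 gave 0.37. Deviations within a group of 3 sum to 0, so an offset shared by the arrays numbered 1 can make all these values positive. The rule therefore cannot show that arrays 2 and 3 are pairs. The paired fit is an alternative.

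Members, lists and tests were chosen with earlier results of these data known. Named were the genes past the threshold, the stalk genes, paralogues beside their parents, the 4 members whose probes differed most, and up to 3 genes per list of related genes. Members named beyond this were chosen after their values were seen. Alternatives covered scaling, background correction, filter, probe choice, threshold, pairing and leaving out arrays.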

Additional observations from a re-analysis of the deposited data

How the results depend on the processing

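Rpl22 and Rps15a passed in 16 of 16 alternative settings. Rpl3l, kept through the treated arrays alone, has no value under the filter for detection on all 6 arrays, and its other values are no check of it. Rplp0 and Rpl7l1 each passed in 14 of 16. Against 6 higher members, median scaling gave 2, no scaling 2 and background correction by neqc 3, and leaving out 1 array gave 2 to 5. Of all genes, 40.5% passed with neqc and 33.2% to 46.0% with 1 array left out. Against 2 lower members, the mean of all probes of a gene gave 4 and a false discovery rate of 0.05 gave 6. Of all genes, 45.0% passed with the mean of probes and 5263 of 9192 passed at 0.05, in either direction. With the replicate number as a block, in the paired fit, 7 members were higher and 3 lower, as Rpl26 and Rps9 were gained and none lost, and 56.7% of all genes passed. Over all genes, against 2072 higher and 1964 lower, median scaling gave 1219 and 776 and no scaling 1286 and 720. Of the genes that passed, 51.3% were higher as fitted and 64.1% without scaling, which moved the median of all genes to 0.12. The members' median difference stayed between -0.05 (cyclic loess) and 0.05 (no scaling), and its sign is not settled. Sign changes of genes that did not pass were seen in Rpl36a (0.024 without scaling, and -0.13 to 0.018 leaving out 1 array), Rpl3 (-0.11 to 0.031 leaving out 1 array), Rpl36al (-0.26 to 0.0043 leaving out 1 array) and Rps19 (0.10 as the mean of its probes). The cause was not tested. Of 46 members that did not pass, 45 had a 95% confidence interval within 1.5-fold in both directions, and Rpl26 was the exception (up to 0.69). These intervals describe the brightest probe only. Dimmer probes of Rpl31, Rpl38, Rps9 and Rps13 passed, while 17 of the 21 dimmer probes did not. A dim probe such as that of Rpl3l is limited by background.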

Other observations

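Rps4l, a relative of the X-linked Rps4x that RefSeq types as a transcribed pseudogene, was left out of the members. Its log2 signals were 6.89, 6.68 and 6.83 in DAC/TSA-treated cells, against 5.25, 5.10 and 5.13 in untreated cells, where it was above background on 0 of 3 arrays. Set against the lowest detected signal of the untreated arrays it was at least 1.95-fold higher, a description only, since its probe was kept through the treated arrays alone. Rps4x had a difference of -0.24 in the same fit (adjusted p = 0.034). The kinase gene Rps6ka5, which the rule also left out, rose by 0.41 (adjusted p = 0.0040).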
